A study of Mus musculus with 24 samples.

Results

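The lysosomal genes followed here were 36 genes of the degradative compartment of the cell together with the transcription factors Tfeb and Tfe3. They were picked by gene symbol from the gene tables of bulk RNA-seq of isolated mouse hepatocytes, and each symbol matched 1 row, so that 36 of the 55421 genes in the tables were members. All 36 members were among the 13847 genes that passed the filter on low counts. By role they comprised 2 regulators, 6 membrane proteins, 9 proteases, 9 glycosidases, 3 sulfatases, 6 lipid-handling proteins and progranulin (Grn).

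The 24 libraries came from C57BL/6J mice of 3 groups. ND+veh mice (n = 8) were given vehicle from 4 months of age and remained on normal diet. HFD+veh mice (n = 7) had the same vehicle and were moved at 18 months to a high-fat diet with 60% of calories from fat for 9 weeks. HFD+eRapa mice (n = 9) were fed encapsulated rapamycin (eRapa, 42 ppm) from 4 months and went through the same 9 weeks of HFD, so that they differed from ND+veh in both diet and drug. No eRapa mice on normal diet were analysed here, and the drug was given to the whole animal in its food. Hepatocytes had been isolated by perfusion and a Percoll step, which lowers but need not remove other liver cells. The labels number the libraries as replicates and name no animal behind each, so p-values measure the spread between these libraries.

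Lysosomes take up material from endocytosis and autophagy and break it down with acid hydrolases, which cut proteins, sugar chains and lipids. TFEB and its relative TFE3 bind the CLEAR site, an extended E-box found near the start of many lysosomal genes, and raise the transcription of these genes when they enter the nucleus. The kinase mTORC1, the target of rapamycin, phosphorylates both factors and holds them in the cytosol, so their activity is set largely by location and not by the amount of their mRNA. In liver, hepatocytes rely on lysosomes for autophagy and for lipid turnover, and Kupffer cells, the resident macrophages, are rich in several of the same enzymes, cathepsin S among them.

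The promoters of the members were searched for letters of the CLEAR site, since this is the sequence through which the 2 regulators act. The RefSeq table (GRCm38.p6) held a promoter, 250 bases before to 50 after a gene start, for 31 of the 36 members. It lacked Ctsh, Galns, Ctsb, Asah1 and Npc1. The first 8 letters of the CLEAR site, GTCACGTG on either strand, were present in 8 of these 31 members (25.8%) and in 2.55% of the 27025 genes with a promoter in the table. The symmetric core TCACGTGA was present in 4 members (12.9%) and in 1.12% of all genes, and the E-box CACGTG, which both longer motifs contain, in 10 members (32.3%) and in 8.09% of all genes. Of 61 other lysosomal genes with a promoter, 12 (19.7%) held GTCACGTG. The stretches around the match of the 8 members are given 5′ to 3′ on the strand of the gene, with CACGTG, and its extension to 8 letters where there was one, in capitals. Where the extension follows the E-box, the motif is read on the opposite strand.
Lamp1 (chr8:13159091-13159160, plus strand): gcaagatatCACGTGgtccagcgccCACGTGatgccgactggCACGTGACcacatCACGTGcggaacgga
Mcoln1 (chr8:3500457-3500496, plus strand): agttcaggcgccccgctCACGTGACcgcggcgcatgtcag
Ctsa (chr2:164833766-164833795, plus strand): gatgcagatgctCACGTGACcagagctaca
Ctsd (chr7:142387903-142387942, minus strand): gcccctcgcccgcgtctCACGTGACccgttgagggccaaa
Gla (chrX:134601177-134601216, minus strand): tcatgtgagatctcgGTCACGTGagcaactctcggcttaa
Glb1 (chr9:114401013-114401052, plus strand): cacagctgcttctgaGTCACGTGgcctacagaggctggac
Naglu (chr11:101070004-101070043, plus strand): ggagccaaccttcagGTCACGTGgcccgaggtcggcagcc
Arsa (chr15:89477425-89477464, minus strand): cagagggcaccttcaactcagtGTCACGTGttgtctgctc

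Lamp1, which encodes a major glycoprotein of the lysosomal membrane, carried 4 E-boxes, at 61, 45, 28 and 15 bases before its start, of which the one at 28 had the longer form. Mcoln1, the calcium channel of the lysosome, carried the longer form at 71 and at 45 bases, 1 of which is in the stretch shown. Ctsd carried the longer form at 245 and at 98 bases before its start. Ctsa carried it at 12 bases before and at base 6 after a start, which is number 2 of those listed for this gene in RefSeq. For Ctsd and for Ctsa 1 match is in the stretch shown. A match of letters is a description of the sequence and does not show that a factor was bound there. Glb1, Gla and Ctsc are shown over the whole 250 bases before the start, because their groups did not overlap in one of the comparisons described in the next paragraphs. Glb1 held 1 match to GTCACGTG, Gla held 1 such match and 1 further E-box without it, and Ctsc held neither.
Glb1 (chr9:114400828-114401077, plus strand): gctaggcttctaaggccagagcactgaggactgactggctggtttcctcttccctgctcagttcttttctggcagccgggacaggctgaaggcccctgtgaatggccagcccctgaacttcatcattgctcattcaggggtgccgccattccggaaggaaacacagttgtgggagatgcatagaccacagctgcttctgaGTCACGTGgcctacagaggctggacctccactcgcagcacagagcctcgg
Gla (chrX:134601006-134601255, minus strand): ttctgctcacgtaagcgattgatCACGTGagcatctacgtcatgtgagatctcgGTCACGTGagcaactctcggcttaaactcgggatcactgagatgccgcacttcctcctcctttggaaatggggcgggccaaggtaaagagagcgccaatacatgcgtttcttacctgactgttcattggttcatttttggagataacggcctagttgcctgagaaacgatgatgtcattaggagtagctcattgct
Ctsc (chr7:88277835-88278084, plus strand): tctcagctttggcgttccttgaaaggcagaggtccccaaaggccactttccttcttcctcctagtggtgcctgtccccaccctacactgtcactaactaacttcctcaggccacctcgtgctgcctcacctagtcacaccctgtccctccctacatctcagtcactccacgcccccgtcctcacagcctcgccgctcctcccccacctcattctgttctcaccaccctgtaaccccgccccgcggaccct

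**Figure D1:**
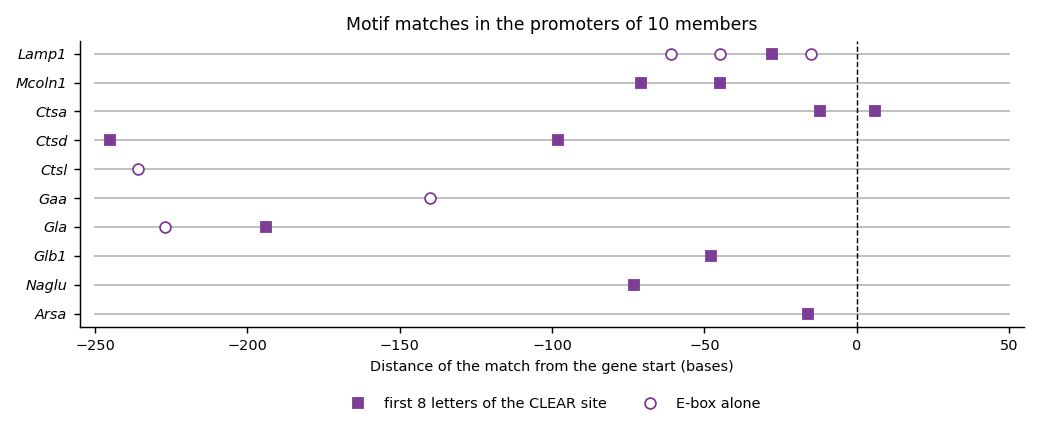
Positions of E-box matches (x axis, bases from the gene start, dashed line at the start) in the promoters of the 10 members that held one (y axis). For Ctsa the start is number 2 of those listed in RefSeq. Filled squares are matches to the first 8 letters of the CLEAR site, found in 8 of these members, and open circles are E-boxes alone; Lamp1 has 4 matches and Ctsl and Gaa have 1 E-box each, more than 100 bases from the start.

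The libraries held 17739252 to 25945134 counts, and a member had between 11 (Cd63) and 77489 counts in a library. Hepatocyte markers were abundant everywhere, with summed levels in CPM (counts scaled to the same library total) of 60540 to 161300 in ND+veh, 99340 to 167800 in HFD+veh and 54350 to 147700 in HFD+eRapa for the 9 markers found in the table. Markers of macrophages were present too, and not evenly. The 14 macrophage markers, such as Adgre1, Clec4f and Cd5l, summed to 75.5 to 1786 CPM in ND+veh (median 353) and to 65.4 to 1542 CPM in HFD+eRapa (median 331). In HFD+veh they summed to 366.9 and 363.8 CPM in replicates 1 and 2, 1483 in replicate 7, and 4550, 3733, 3724 and 7905 in replicates 3, 4, 5 and 6. None of the 14 was at 0 in any library. Between HFD+veh and ND+veh all 14 estimates were positive and 5 passed the test, and between HFD+eRapa and HFD+veh all 14 were negative and 11 passed. Over all genes tested 16% were higher in the first of these comparisons and 21.1% were lower in the second. Other lists held markers that were higher in HFD+veh as well. They were 4 of 5 lipid-associated macrophage markers (median log2 fold change 3.87) and 2 of 3 neutrophil markers. So were 2 of 7 stellate, 1 of 8 endothelial and 2 of 2 cholangiocyte markers and the 1 lymphocyte marker tested. The endothelial share was under that of all genes. The part of these lists in the results was not tested beyond the immune score. Because each library is a mixture, a change in the number of cells of a type and a change in the RNA per cell cannot be told apart.

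On the per-length FPKM scale, the most abundant members in ND+veh hepatocytes were the protease Ctsl (median 319.7 FPKM), the membrane proteins Lamp2 (291.1) and Lamp1 (284.8), and the proteases Ctsb (264.9) and Ctsh (240.6). Ctsd (178.6 FPKM) and Psap (159.2 FPKM) followed. At the other end stood Cd63 (3.24 FPKM), Tfeb (3.0 FPKM) and Gla (1.97 FPKM). Of the 35 pairs of neighbours in this order, 33 had overlapping ranges over the 8 libraries. Galns, a sulfatase of keratan sulfate breakdown, was listed at 0 FPKM in all 24 libraries although it had 3.97 to 8.44 CPM in ND+veh from the counts, so its FPKM was not used as a level. Ctsb moved to the head of the order in HFD+veh (median 522.3 FPKM) and Ctss moved from rank 24 to rank 9, while Lamp1 led in HFD+eRapa (median 292.1 FPKM).

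The first comparison asked how HFD altered the members in vehicle-treated old mice. Relative to ND+veh, 15 of the 36 members were higher in HFD+veh, 2 were lower and 19 did not pass the test. This was 47.2% of the members, beside 25.9% of all genes tested, of which 16% were higher and 9.86% were lower. The median log2 fold change of the members was 0.28, and that of all genes tested was 0.05. The members that rose were the proteases Ctss, Ctsc, Ctsb, Ctsd and Tpp1, the glycosidases Gla, Hexa, Man2b1 and Glb1, the lipid-handling proteins Asah1, Ppt1, Psap and Npc2, the membrane protein Cd63, and Grn. Tfe3 and Gaa fell.

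Neither of the 2 regulators rose. Tfeb was at 5.36 to 8.64 CPM in ND+veh (median 6.87), at 5.06 to 8.82 in HFD+veh (median 7.78) and at 3.51 to 8.60 in HFD+eRapa (median 6.20), and the 3 ranges overlapped almost fully. Its log2 difference between HFD+veh and ND+veh was 0.06 ± 0.17 (SE, adjusted p = 0.834). Tfe3 was at 21.6 to 32.6 CPM in ND+veh (median 26.4) and at 15.6 to 25.9 in HFD+veh (median 20.4). It fell by 0.40 ± 0.13 on the log2 scale (adjusted p = 0.0269). The lowest values were 15.6 CPM in replicate 1, 16.7 in replicate 2 and 17.6 in replicate 6. Of the HFD+veh libraries, replicates 1 and 2 had the lowest macrophage marker sums and replicate 6 had the highest. The call for Tfe3 was not made on FPKM values (log2 difference -0.32, adjusted p = 0.143).

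Lamp1 and Lamp2, which line the lysosomal membrane and are often used as a gauge of lysosome content, did not pass the test. Lamp1 was at 538.8 to 731.9 CPM in ND+veh (median 659.6), 615.6 to 758.6 in HFD+veh (median 718.1) and 655.3 to 800.9 in HFD+eRapa (median 705.1). The log2 difference between HFD+veh and ND+veh was 0.13 ± 0.08 (adjusted p = 0.259). Lamp2, the receptor of chaperone-mediated autophagy in one of its forms, was at 560.2 to 840.6 CPM in ND+veh (median 677.1) and at 667.7 to 1397 in HFD+veh (median 771.9), with 1397 in replicate 6 and the other 6 libraries at or below 802.9. Its difference was 0.29 ± 0.17 on the log2 scale (adjusted p = 0.190). Of the other membrane proteins Scarb2 (0.27), Mcoln1 (-0.34) and Npc1 (-0.36) did not pass the test either, and Cd63 did.

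Ctsc, the protease that activates serine proteases of immune cells, was the 1 member whose 2 groups did not overlap, beside 2.44% of all genes tested. It was at 46.3 to 175.2 CPM in ND+veh (median 81.3) and at 192.2 to 1071 CPM in HFD+veh (median 323.8). The log2 difference was 2.14 ± 0.41 (adjusted p = 0.00109). Replicates 1 and 2, at 298.1 and 192.2 CPM, were above every ND+veh library. Their macrophage markers summed to 366.9 and 363.8 CPM, beside the wide ND+veh range of 75.5 to 1786 CPM (median 353). Single markers differed in direction. Mpeg1 gave 164.9 and 155.7 CPM of these sums (ND+veh median 48.1), and Clec4f gave 44.5 and 40.8 CPM (ND+veh median 65.4). The part of macrophage RNA in the Ctsc level of these 2 libraries was not tested.

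Ctss, a protease used in antigen presentation, had the largest estimate, 3.24 ± 0.96 on the log2 scale (adjusted p = 0.0188). It was at 2.38 to 105.3 CPM in ND+veh (median 17.6) and at 12.2 to 1040 in HFD+veh (median 161). Replicates 1, 2 and 7 lay inside the ND+veh range, at 12.2, 13.1 and 75.5 CPM. Without HFD+veh replicate 6 the difference was 2.30 (adjusted p = 0.0835).

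Cd63, a tetraspanin of late endosomes and exosomes, was at 0.738 to 5.64 CPM in ND+veh (median 2.93) and at 1.57 to 74.6 CPM in HFD+veh (median 13.9). Replicates 1, 2 and 7 again lay inside the ND+veh range. The log2 difference was 2.74 ± 0.71 (adjusted p = 0.00939) and 1.94 without replicate 6 (adjusted p = 0.0487). Asah1, the acid ceramidase, was at 22.6 to 56.3 CPM in ND+veh (median 32.0) and at 26.0 to 308.4 in HFD+veh (median 76.1), a log2 difference of 1.55 ± 0.39 (adjusted p = 0.00754) that was 0.88 without replicate 6 (adjusted p = 0.0467). Gla, the alpha-galactosidase missing in Fabry disease, was at 5.08 to 9.81 CPM in ND+veh (median 5.98) and at 7.10 to 35.1 in HFD+veh (median 11.3), a log2 difference of 1.24 ± 0.26 (adjusted p = 0.00222) and 0.85 without replicate 6 (adjusted p = 0.00648).

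Gaa, the acid alpha-glucosidase that degrades glycogen, was the member that fell most. It was at 70.8 to 132.8 CPM in ND+veh (median 122.9), where replicate 8 was the lowest, and at 44.6 to 91.3 in HFD+veh (median 75.4), where replicate 6 was the lowest. The log2 difference was -0.62 ± 0.15 (adjusted p = 0.00542). Of the remaining called members, Ppt1, the palmitoyl-protein thioesterase, had the smallest adjusted p (1.13 ± 0.21, adjusted p = 0.000727), and Ctsb (1.09), Psap (1.05), Hexa (0.99), Grn (0.90), Npc2 (0.83), Ctsd (0.80), Man2b1 (0.54), Glb1 (0.46) and Tpp1 (0.35) were higher on the log2 scale. The members not called in either direction lay between -0.36 (Npc1) and 0.35 (Ctsa). They included the whole sulfatase group, Galns, Arsa and Arsb, and Lipa, the acid lipase that releases cholesterol and fatty acids (0.03 ± 0.17).

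**Figure D2:**
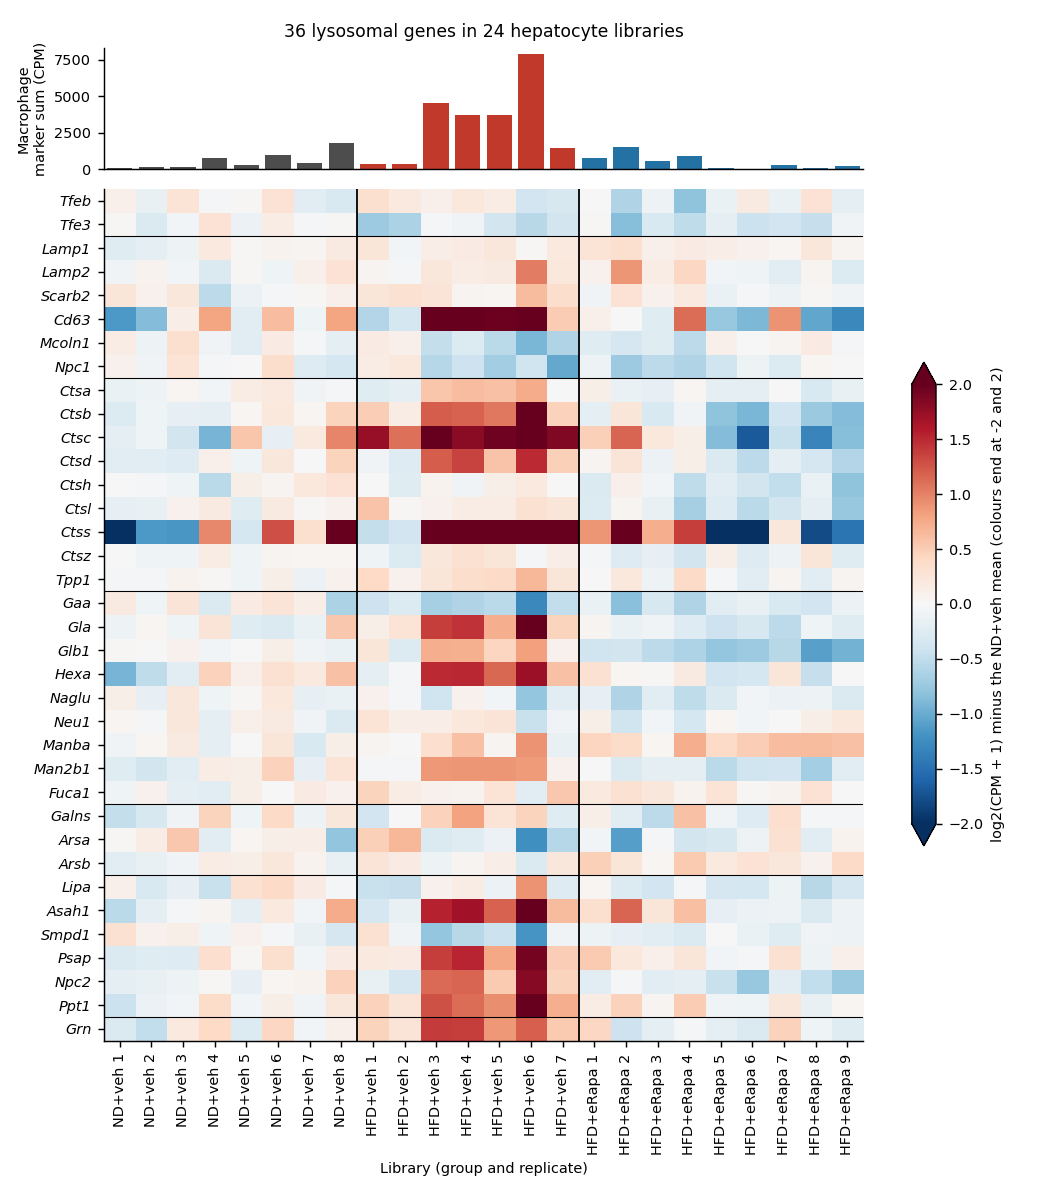
Each row is a member and each column a library of the group given on the x axis, coloured by log2(CPM + 1) minus the ND+veh mean of that gene, with the summed CPM of 14 macrophage markers as bars above. HFD+veh replicates 3, 4, 5 and 6 have marker sums of 3724 to 7905 CPM and are red for all 15 members called higher. Ctss also reaches the end of the colours in other libraries, such as ND+veh replicate 8. HFD+veh replicates 1 and 2, at 366.9 and 363.8 CPM, are paler, with Ctsc as their deepest red.

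The rise of the 15 members was not shared evenly by the HFD+veh libraries. All 15 were above the whole ND+veh range in replicates 3, 4, 5 and 6, where the macrophage markers summed to 3724 to 7905 CPM. In replicate 7 (1483 CPM) 7 of the 15 were above that range, namely Ctsb, Ctsc, Ctsd, Tpp1, Psap, Ppt1 and Grn. In replicate 1 (366.9 CPM) there were 6, namely Ctsb, Ctsc, Tpp1, Glb1, Ppt1 and Grn, and in replicate 2 (363.8 CPM) there was only Ctsc. The summed level of all 36 members was 5189 to 6630 CPM in ND+veh (median 5660), 5741 to 14340 in HFD+veh (median 8014) and 4619 to 6725 in HFD+eRapa (median 5240). The part of macrophage RNA in these differences was not tested apart from the fit in the next paragraph.

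An immune score was taken from the markers tested, 14 of macrophages, 3 of neutrophils and 1 of lymphocytes (Trbc2). It therefore rested mostly on macrophage markers. When this score was added to the fit, 3 of the 15 members remained higher in HFD+veh and 1 of the 2 remained lower. Beside this, 8.37% of all genes were called (3.97% higher, 4.4% lower). The 3 were Ctsc (1.22 ± 0.29, adjusted p = 0.00722), Ppt1 (0.63 ± 0.16, adjusted p = 0.012) and Grn (0.57 ± 0.18, adjusted p = 0.0439), and the 1 was Tfe3 (-0.48 ± 0.15, adjusted p = 0.0429). Grn encodes progranulin, which is delivered to lysosomes and cut there into granulins. Ctss went from 3.24 to 0.09 and Cd63 from 2.74 to 0.37 on the log2 scale. Score and diet vary together in these libraries, and a fit with both cannot fully separate them. Without HFD+veh replicate 6, 10 of the 15 remained higher and both lower calls remained, beside 15.1% of all genes called (7.1% higher, 8.04% lower), and the 5 that were lost were Ctss, Tpp1, Glb1, Man2b1 and Npc2. Glb1 and Man2b1 also lost the call without HFD+veh replicate 3, HFD+veh replicate 4 or ND+veh replicate 1. Conversely, without HFD+veh replicate 1 the members called lower became 5. Those added were Mcoln1 (-0.44, adjusted p = 0.022), Npc1 (-0.46, adjusted p = 0.0395) and Smpd1 (-0.48, adjusted p = 0.0124). Without HFD+veh replicate 2 the members called lower became 4. No share over all genes is given beside these 2 fits, so the added calls cannot be set against a background.

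The second comparison asked how rapamycin altered the members under HFD. Relative to HFD+veh, none of the 36 was higher in HFD+eRapa, 17 were lower and 19 did not pass the test. Again 47.2% were called, beside 32% of all genes tested, of which 10.9% were higher and 21.1% were lower. Beside the count of 0, edgeR gave 1 member higher at an unadjusted p under 0.05, and DESeq2 and limma voom likewise called 0 higher after adjustment and 1 before it. The median log2 fold change was -0.30 for the members and -0.04 for all genes. The 15 members that HFD raised over ND+veh were all among the 17, and both comparisons use the same 7 HFD+veh libraries, so a library that is high in that group moves both. The other two of the 17 were Ctsa (-0.45 ± 0.13, adjusted p = 0.00857), which protects beta-galactosidase and neuraminidase in a complex, and Ctsl (-0.56 ± 0.11, adjusted p = 0.0013), a broad cysteine protease.

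Among the groups of members, 7 of the 9 proteases, 4 of the 9 glycosidases, 4 of the 6 lipid-handling proteins, 1 of the 6 membrane proteins and Grn were lower, and neither a regulator nor a sulfatase was called. Tfeb differed by -0.22 ± 0.17 (adjusted p = 0.319), Tfe3 by 0.04 ± 0.12 (adjusted p = 0.821), Lamp1 by 0.02 ± 0.08 (adjusted p = 0.871) and Lamp2 by -0.15 ± 0.16 (adjusted p = 0.508) on the log2 scale.

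Glb1, the lysosomal beta-galactosidase whose activity is stained as a mark of senescent cells, had the smallest adjusted p. It was at 11.2 to 25.1 CPM in HFD+veh (median 19.0) and at 6.00 to 10.5 in HFD+eRapa (median 8.61), with no overlap. The log2 difference was -1.17 ± 0.14 (adjusted p = 9.06e-06). Gla was at 7.10 to 35.1 CPM in HFD+veh and at 4.20 to 6.69 in HFD+eRapa (median 5.27), again with no overlap, a difference of -1.51 ± 0.25 (adjusted p = 0.000214). Groups that did not overlap were found for these 2 members and for 2.59% of all genes.

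Ctss had the largest fall, by 3.4 ± 0.93 on the log2 scale (adjusted p = 0.00798), from a median of 161 CPM in HFD+veh to 20.4 in HFD+eRapa, where it ranged from 1.63 to 93.9. Cd63 fell by 2.94 ± 0.69 (adjusted p = 0.00328), to 0.58 to 7.31 CPM in HFD+eRapa (median 2.26). Ctsc fell by 2.34 ± 0.39 (adjusted p = 0.00027), to 27.1 to 200.4 CPM (median 65.1), and the highest of these libraries, replicate 2, was above the lowest HFD+veh library. Ctsb, an abundant cysteine protease, was at 597.4 to 984.7 CPM in ND+veh (median 712.3), at 800.5 to 3267 in HFD+veh (median 1511) and at 382 to 859.3 in HFD+eRapa (median 553.5). It fell by 1.5 ± 0.23 (adjusted p = 0.000105), and the HFD+veh and HFD+eRapa ranges overlapped through 1 library of each, HFD+veh replicate 2 and HFD+eRapa replicate 2.

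**Figure D3:**
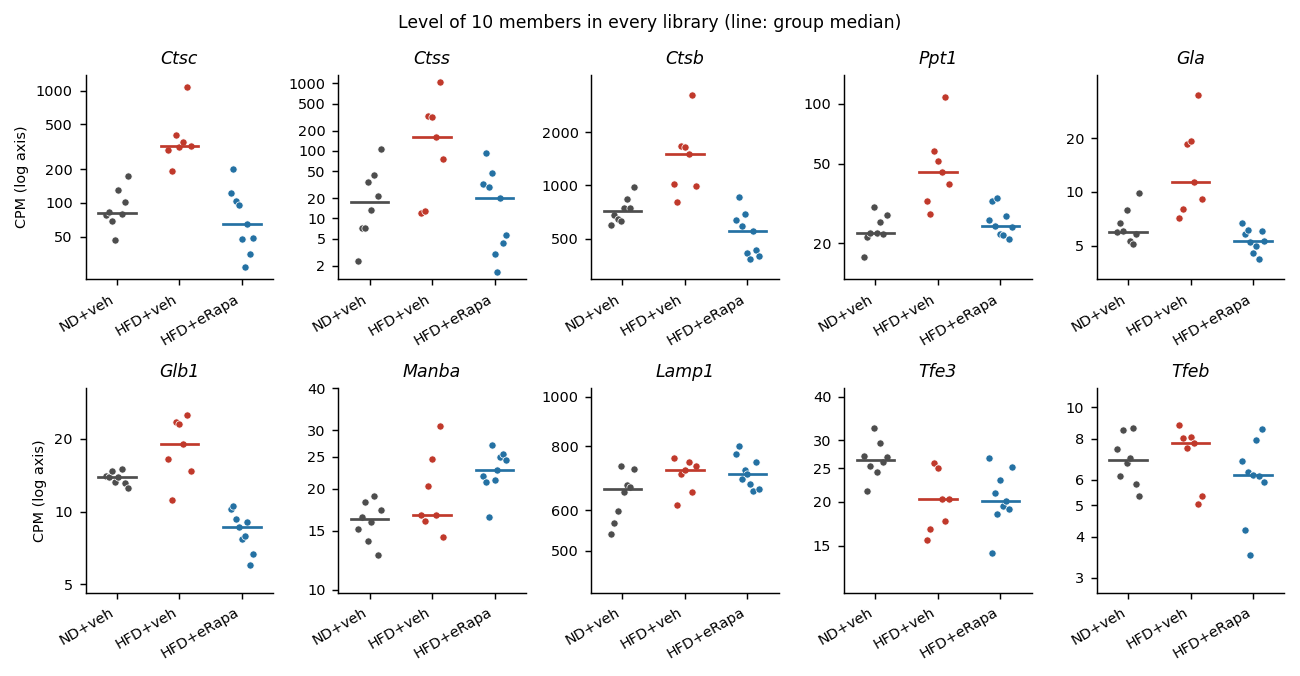
Level of 10 members in CPM (log axis) in each library of the 3 groups on the x axis, with lines at the group medians. Ctsc in HFD+veh lies above all ND+veh points, Glb1 in HFD+eRapa (6.00 to 10.5 CPM) lies below all points of both other groups, and Tfeb and Lamp1 overlap in all 3 groups.

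When the immune score entered the fit, 5 of the 17 members remained lower with eRapa, and 0 were higher, beside 6.07% of all genes called (2.72% higher, 3.36% lower). These were Glb1 (-0.86 ± 0.14, adjusted p = 0.000407), Ctsc (-1.48 ± 0.28, adjusted p = 0.00166), Ctsb (-0.82 ± 0.17, adjusted p = 0.00327), Ctsl (-0.49 ± 0.14, adjusted p = 0.0319) and Gla (-0.89 ± 0.27, adjusted p = 0.0485). Ctss was then at 0.11 ± 0.23 and Asah1 at -0.08 ± 0.31, where they had been at -3.4 and -1.34. Without HFD+veh replicate 6, 15 of the 17 remained lower, Tpp1 and Asah1 were lost, and Manba was called higher, beside 23.5% of all genes called (8.86% higher, 14.6% lower). The lists of lipid-associated macrophage (5 of 5), endothelial (7 of 8) and stellate (7 of 7) markers were lower in HFD+eRapa as well. In the fit on groups only, 21.1% of all genes were lower. The part of these lists in the fall of the members was not tested.

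**Figure D4:**
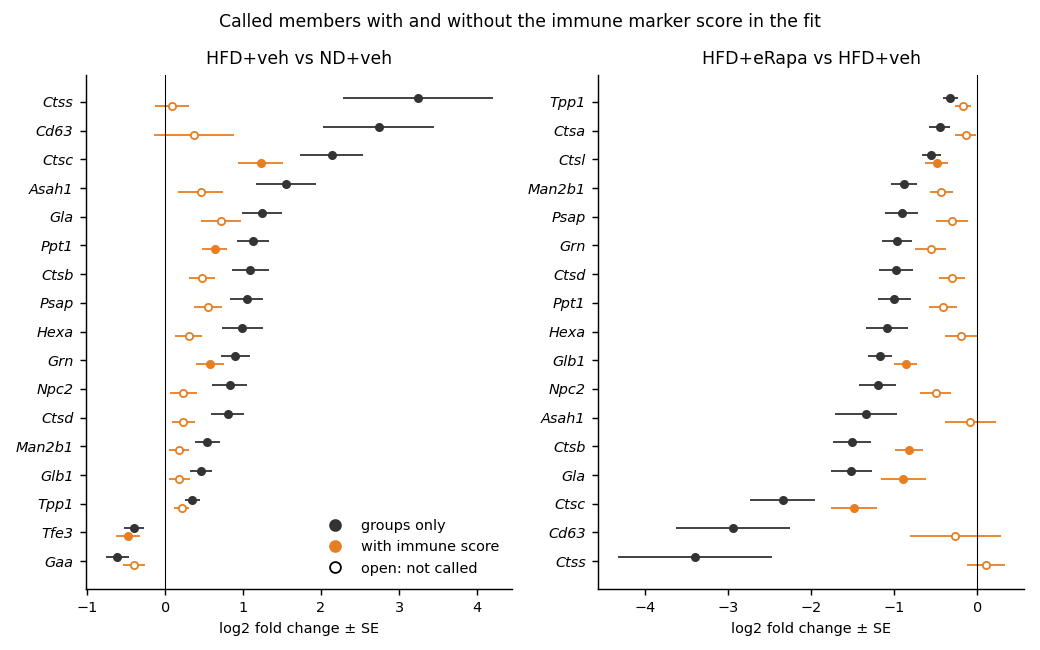
Log2 fold change ± SE (x axis) of the members called in each comparison (y axis), in the fit on groups only (dark) and after adding the immune score (orange), with open points where a member was not called. Ctss and Cd63 move from beyond 2.7 in size to below 0.4, while Ctsc, Ppt1, Grn and Tfe3 on the left and Glb1, Ctsc, Ctsb, Ctsl and Gla on the right stay called.

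The remaining comparison, of HFD+eRapa with ND+veh, spans a difference in diet and in drug. Here 2 members were higher, 2 were lower and 32 did not pass the test. The 11.1% of members called was close to the 13.5% of all genes (6.93% higher, 6.54% lower). The median log2 fold change was -0.16 for the members and -0.03 for all genes. Of 7 stellate markers 3 were lower in HFD+eRapa and all 7 estimates were negative (median -1.33), and all 8 endothelial estimates were negative (median -0.70), and the part of these cells in the result was not tested.

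Glb1 was at 12.6 to 15.1 CPM in the 8 ND+veh libraries (median 13.9) and at 6.00 to 10.5 CPM in HFD+eRapa. The log2 difference was -0.71 ± 0.14 (adjusted p = 0.000894), and it was the 1 member without overlap, beside 3.37% of all genes. With the immune score in the fit the difference was -0.68 ± 0.11 (adjusted p = 0.000103). The gene lies on chr9:114401076-114474898 (GRCm38) and shares exon sequence on the same strand with Tmppe, whose counts were 14 to 76 per library beside 97 to 594 for Glb1, and reads that fall on both genes could not be assigned to one of them. Its matched E-box lies 48 bases before the start, in the stretch printed before.

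Ctsl was at 461.5 to 619 CPM in ND+veh (median 568) and at 322.7 to 566.2 in HFD+eRapa (median 452.4), a log2 difference of -0.34 ± 0.11 (adjusted p = 0.0433). Manba, the beta-mannosidase, was at 12.7 to 19.1 CPM in ND+veh (median 16.2), at 14.4 to 30.9 in HFD+veh (median 16.8) and at 16.5 to 27.1 in HFD+eRapa (median 22.8). It was higher with HFD and eRapa than on ND by 0.50 ± 0.13 (adjusted p = 0.0122), and 8 of the 9 HFD+eRapa libraries were above the ND+veh range. Arsb, a sulfatase of dermatan sulfate breakdown, was at 30.1 to 41.1 CPM in ND+veh (median 34.9) and at 35.8 to 50.6 in HFD+eRapa (median 41.1), a difference of 0.28 ± 0.09 (adjusted p = 0.0415). The calls for Arsb and Ctsl were lost when any of several single libraries was left out, in 12 fits each, with adjusted p up to 0.138 for Arsb without ND+veh replicate 1 and 0.0903 for Ctsl without ND+veh replicate 6.

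Tfe3 missed the threshold in this comparison (-0.35 ± 0.12, adjusted p = 0.0501), and so did Tfeb (-0.17 ± 0.16, adjusted p = 0.564), Lamp1 (0.15 ± 0.08, adjusted p = 0.240) and Lamp2 (0.14 ± 0.16, adjusted p = 0.620). Tfe3 was called lower in the same comparison by DESeq2 (adjusted p = 0.0286), by limma voom (adjusted p = 0.0498) and with HFD+veh replicate 6 left out (adjusted p = 0.0255). In that last fit 5 members were lower and 2 higher, with Tfe3, Gaa and Naglu added to the lower ones, beside 16% of all genes called (7.61% higher, 8.43% lower). In the fit with the immune score 5 were lower and 2 higher as well, with Npc1, Gaa and Naglu beside Glb1 and Ctsl, where 19.1% of all genes were called (8.67% higher, 10.4% lower). Tfe3 was at 14.3 to 26.8 CPM in HFD+eRapa (median 20.1), and 6 of its 9 values were below the lowest ND+veh library. The members with the largest HFD+veh estimates were near their ND+veh levels, Ctss at -0.16 ± 0.85, Cd63 at -0.20 ± 0.65 and Ctsc at -0.20 ± 0.37, with wide standard errors.

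**Figure D5:**
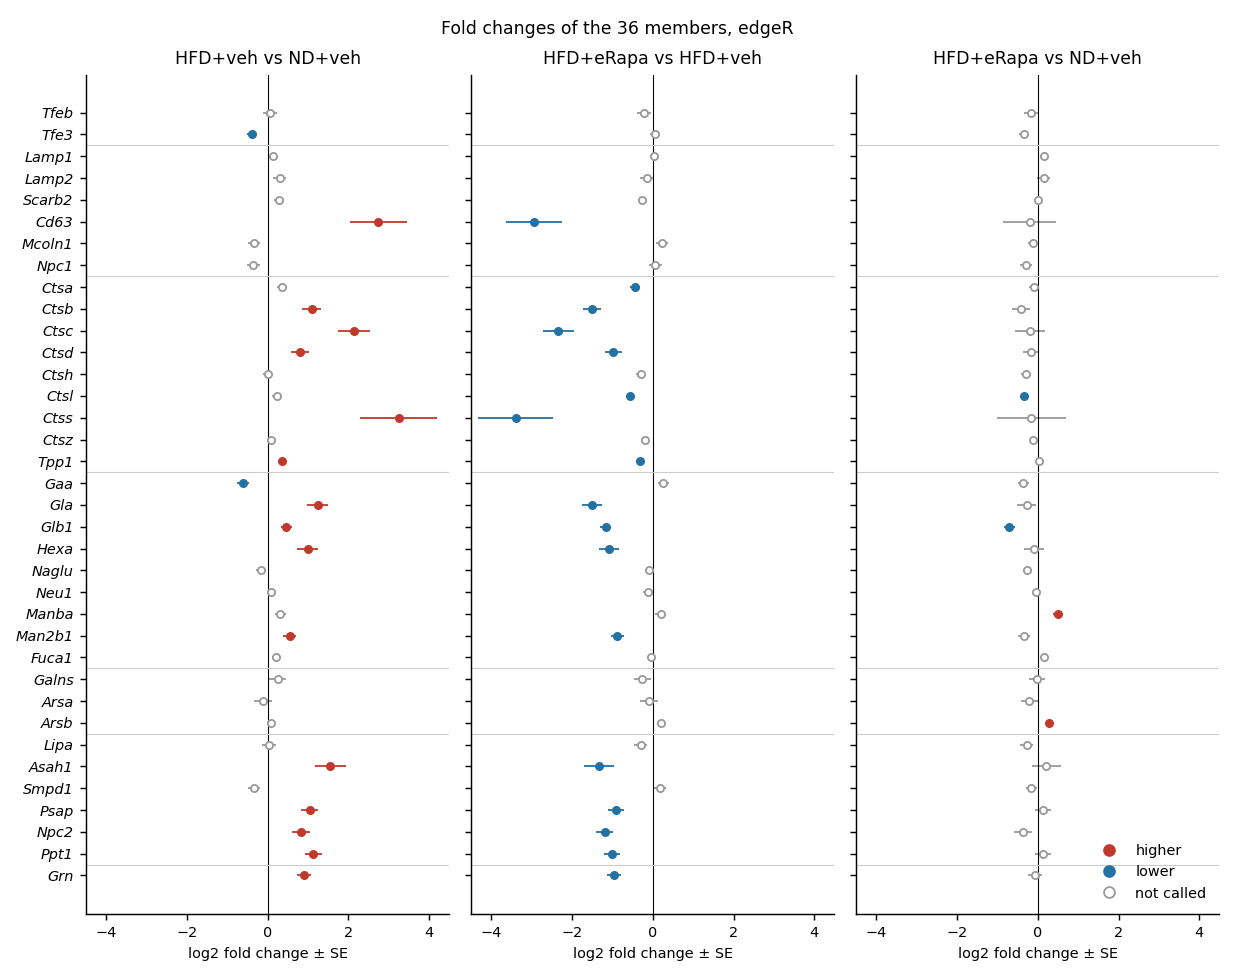
Log2 fold change ± SE (x axis) of the 36 members (y axis, in groups by role) in the 3 comparisons, with red for higher, blue for lower and open grey for not called at an adjusted p of 0.05. The 15 red points on the left have blue points in the middle panel, and in the right panel 2 members are red (Manba, Arsb) and 2 are blue (Glb1, Ctsl).

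Of the 8 members with GTCACGTG in the promoter, 3 (Ctsd, Gla, Glb1) rose on HFD and 4 (these and Ctsa) fell with eRapa under HFD. Of the 23 members with a promoter and no match, 10 and 11 were called in the same comparisons and directions. Over all genes tested 16% were higher in the first and 21.1% were lower in the second. Lamp1, Mcoln1, Naglu and Arsa, which hold the motif, were called in none of the 3 comparisons.

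Other genes of the pathway were followed as 5 lists of 77 genes, of which 75 were tested. On HFD with vehicle 24 of the 75 rose and 1 fell, with a median log2 fold change of 0.25 (33.3% called, beside 25.9% of all genes). With eRapa under HFD 33 were lower and 2 were higher, with a median of -0.28 (46.7% called, beside 32% of all genes). Against ND+veh 1 was higher and 4 were lower in HFD+eRapa, 6.67% of the list beside 13.5% of all genes, so that this share was under the background. When the immune score entered the fit, 6 were higher and 1 was lower in the first comparison (9.33%, beside 8.37% of all genes), 3 were lower in the second (4%, beside 6.07%), and 3 were higher and 7 lower in the last (13.3%, beside 19.1%).

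Of the 16 subunits and accessory proteins of the V-ATPase, the proton pump that acidifies the lysosome, 5 rose and 1 fell on HFD. In that comparison 16% of all genes tested were higher and 9.86% were lower. Atp6v0d2, the form of the d subunit known from osteoclasts and macrophages, went from 0.47 to 2.33 CPM (median 0.841) to 1.73 to 43.6 CPM (median 7.45), a log2 difference of 3.45 ± 0.63 (adjusted p = 0.000763), and Atp6v1b2 was higher by 1.03 ± 0.24 (adjusted p = 0.00444). The widespread form Atp6v0d1 was the 1 subunit that fell (-0.36 ± 0.09, adjusted p = 0.00691), and it was higher again with eRapa (0.30 ± 0.09, adjusted p = 0.00993), where Atp6v0d2 (-2.07) and Atp6v1b2 (-1.06) were lower. Of 13 membrane proteins and transporters tested, 2 were higher in HFD+veh, close to the share over all genes. They were the channel Mcoln2 (2.28), at only 0 to 1.99 CPM in ND+veh, and Laptm4a (0.52). In HFD+eRapa 6 of the 13 were lower than in HFD+veh, headed by Mcoln2 (-3.56) and the arginine sensor Slc38a9 (-0.59). Slc17a5 was the 1 that was higher, where 21.1% of all genes were lower and 10.9% were higher.

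Of 26 further hydrolases and cofactors, 12 were higher in HFD+veh, beside 16% of all genes. Among them was the asparaginyl protease Lgmn (2.33 ± 0.55, adjusted p = 0.00566). With eRapa 15 of the 26 were lower, beside 21.1% of all genes, led by Ctsk (-2.61 ± 0.66, adjusted p = 0.00537) and Lgmn (-2.55 ± 0.54, adjusted p = 0.0017). Ctsk was near the floor, at only 0.308 to 2.95 CPM in HFD+veh and 0 to 0.769 in HFD+eRapa. Gm2a, the cofactor of Hexa in ganglioside breakdown, was at 120.3 to 198.9 CPM in HFD+veh and at 49.4 to 91.0 in HFD+eRapa, a log2 difference of -1.17 ± 0.14 (adjusted p = 1.11e-05). It was also lower than in ND+veh (-1.04 ± 0.14, adjusted p = 1.98e-05), and so was Dnase2a (-0.52 ± 0.12, adjusted p = 0.00377). The protease Ctso was the 1 gene of these lists that was above ND+veh in HFD+eRapa (0.38 ± 0.12, adjusted p = 0.0351), and Cln3, a membrane protein, was lower (-0.37 ± 0.10, adjusted p = 0.0135).

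Of 7 genes that sort enzymes to the lysosome, Gnptab (0.59) and the mannose 6-phosphate receptor M6pr (0.44) were higher in HFD+veh and both were lower with eRapa (-0.45 and -0.46). Beside these counts and those that follow, 16% of all genes were higher in HFD+veh and 21.1% were lower with eRapa. Of 13 genes that act on TFEB or belong to its family, Tfec (2.29 ± 0.82, adjusted p = 0.0424), a relative of TFEB expressed in macrophages, and Lamtor3 (0.54 ± 0.17, adjusted p = 0.0214), part of the complex that holds mTORC1 at the lysosome, had the larger estimates of the 3 that were higher in HFD+veh. With eRapa 4 of the 13 were lower, led by Tfec (-2.50 ± 0.79, adjusted p = 0.0191) and Rragd (-2.15 ± 0.64, adjusted p = 0.0128).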

How the data were processed

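Hepatocyte RNA from 24 libraries was sequenced. Per the labels and the study's methods, the authors aligned reads to mm10 with STAR, counted them per gene with HTSeq 0.11.2 (strand setting not given in the sources used here) and deposited raw counts. They also deposited FPKM values from Cufflinks.

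Counts were tested with edgeR 4.0.16 (quasi-likelihood, TMM, filterByExpr, all 24 libraries in 1 model, contrasts between groups, Benjamini-Hochberg adjustment over 13847 genes, threshold 0.05) in R 4.3.3, and the procedure was tested on simulated data. Levels are TMM-scaled CPM. FPKM was used for levels between genes and, with limma 3.58.1, as an alternative. Alternatives were DESeq2 1.42.0, limma voom, other filters, a replicate block, an immune marker score and leaving out each library. All libraries carry batch label 1. Same-group libraries differed by more than counting noise, and intervals of this kind do not cover preparation error.

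Coordinates of genes are from Gencode M21 (GRCm38), where 55154 of 55421 identifiers were found. Those of the printed stretches, and the positions of matches, follow the RefSeq starts. Ctsd, Ctsl and Glb1 share exon sequence with another gene on the same strand and 11 members with one on the opposite strand, so their counts are less certain. The motif search took 1 promoter or more per gene from RefSeq.

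The members and all lists were chosen with earlier results of these data known. Named were Tfeb, Tfe3, Lamp1 and Lamp2, the 5 called members with the largest rise and fall per comparison, and the 2 called genes with the largest change of each other lysosomal list; further names were chosen after their values were seen. Some items named by this rule are not reported here. The main fit did not pair the libraries by replicate number.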

Additional observations from a re-analysis of the deposited data

Results flagged for a closer look

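In 7 of the 108 sets of 7 to 9 libraries (36 members in 3 groups), 1 library stood apart from the rest of its group on the log2 CPM scale, where chance gives about 5.4 (1 in 20). HFD+veh replicate 6, the library with the most macrophage marker RNA, was high for Lamp2 (10.45, the others 9.38 to 9.65) and for Ctsc (10.07, the others 7.59 to 8.64), and low for Gaa (5.48, the others 6.12 to 6.51). ND+veh replicate 4 was low for Scarb2 (7.13, the others 7.54 to 7.9) and for Ctsh (7.37, the others 7.83 to 8.21). HFD+eRapa replicate 2 was low for Arsa (4.26, the others 5.02 to 5.71), and ND+veh replicate 8 was high for Npc2 (6.7, the others 6.05 to 6.31).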

How the results depend on the processing

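Over 1505 alternative values of 43 gene and comparison pairs, leaving out 1 library left 983 with the same direction and side of the threshold, 37 lost the call, 9 gained it and 3 changed sign. Among the other alternatives these numbers were 387, 76, 6 and 4. With the immune marker score, HFD+veh against ND+veh gave 3 members higher and 1 lower, HFD+eRapa against HFD+veh gave 5 lower, and HFD+eRapa against ND+veh gave 5 lower. On FPKM, HFD+veh against ND+veh gave 9 members higher (pseudocount 1), 8 (pseudocount 0.1) and 6 with 1 lower (no filter), and HFD+eRapa against ND+veh gave 0 higher by limma in all 3 (1 at an unadjusted p under 0.05). In that last comparison, dropping the count filter gave 1 higher and 1 lower, and fitting the 2 groups alone gave 5 lower. For these changes the cause was not tested. The FPKM fits covered 35 members, not 36. No share over all genes is given beside the counts on FPKM, without the count filter or from the 2 groups alone. The same holds for the fits below that leave out a library other than HFD+veh replicate 6. Such counts cannot be set against a background. Leaving out 1 library gave 10 (without HFD+veh replicate 6) to 16 higher and 2 to 5 (without HFD+veh replicate 1) lower in HFD+veh against ND+veh, 0 to 1 higher and 15 to 19 lower in HFD+eRapa against HFD+veh, and 1 to 2 higher and 1 to 5 lower in HFD+eRapa against ND+veh. Signs changed for Ctss, HFD+eRapa against HFD+veh, with the immune score (0.105), for Tfe3 in the same comparison on FPKM (-0.122, -0.139 and -0.122), without HFD+veh replicate 1 (-0.01) and without HFD+eRapa replicate 1 (-0.011), and Tfeb was at 0 in HFD+veh against ND+veh without HFD+veh replicate 4. Leaving out 1 library gave -0.011 to 0.129 for that value of Tfe3 and 0 to 0.116 for that of Tfeb.

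The labels do not say that the replicate numbers pair the libraries. Same-numbered libraries correlated with r from -0.36 to 0.726 (mean 0.316), -0.659 to 0.495 (mean -0.245) and -0.518 to 0.367 (mean -0.203) in the 3 comparisons. Correlations above 0.1 were found for 5 of 7, 2 of 7 and 2 of 8 pairs. Of the libraries, 5 of 14, 1 of 14 and 1 of 16 correlated best with their own number. What lies behind the positive mean between HFD+veh and ND+veh was not tested. With the numbers as a block, 13 members were higher and 2 lower in HFD+veh against ND+veh, 13 were lower in HFD+eRapa against HFD+veh, and 1 was higher and 2 lower in HFD+eRapa against ND+veh, where 17.8%, 18.3% and 11.4% of all genes were called. Depth limited Cd63 most, with as few as 11 counts in a library.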
